A study of Mus musculus with 18 samples.

Results

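The interferon response and antigen presentation genes described here are a module of 44 listed mouse genes: transcription factors of the interferon pathway, the Ifit, Oas and guanylate-binding families, other antiviral effectors, and the peptide-loading and heavy-chain genes of class I antigen presentation. They were found in a table of counts per gene by matching its Ensembl identifiers to gene symbols. Of the 44 genes, 42 were matched among 32285 identifiers. Mx1 and Mx2 were not matched and are not analysed here. A filter on low counts kept 41 of the 42, against 15072 genes kept in all, and left out Oas2, which reached 0.22 CPM at most (CPM, counts per 1000000 on library sizes scaled by TMM).

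The RNA came from fibroblasts sorted from the paws of mice of wild-type genotype. Arthritic cells came from the STIA model, in which serum of K/BxN mice is transferred and sets off joint inflammation, and were given 50 ng/mL of osteopontin (OPN, a secreted protein that binds integrins and CD44) or left unstimulated. Naive cells were given 10 ng/mL FGF2 (a fibroblast mitogen) with 50 ng/mL OPN, FGF2 alone at 10 ng/mL, OPN alone at 50 ng/mL, or no stimulation, and stimulation lasted 3 days. The 6 groups were STIA+OPN, STIA, FGF2+OPN, FGF2, OPN and unstimulated naive cells, with 3 libraries each. No label ties the 3 to separate mice or cultures, so a p-value measures the spread between these libraries only. No STIA cells received FGF2.

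Type I interferons bind the receptor IFNAR and, through the kinases JAK1 and TYK2, bring STAT2 and IRF9 into ISGF3, a complex that binds the interferon-stimulated response element (ISRE) of antiviral genes. Interferon gamma acts through IFNGR, JAK1 and JAK2 on genes with the GAS element, and is the stronger inducer of class I antigen presentation and of the large GTPases. Many of these genes are also expressed at a basal level in fibroblasts with no interferon added. Proteins cut by the immunoproteasome (Psmb8, Psmb9) give peptides that Tap1 carries into the endoplasmic reticulum, where H2-K1 and H2-D1 heavy chains bind them together with B2m.

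The promoters of 5 members show what the ISRE core looks like where it is present and where it is not. Each sequence runs 5′ to 3′ from 250 bases before to 50 bases after the RefSeq transcription start in GRCm38.p6, and capitals mark matches to the ISRE core GAAANNGAAA or its reverse complement, with overlapping matches joined. Isg15 (chr4:156200769-156201068, minus strand), a ubiquitin-like modifier, had 3 overlapping cores, Ifit3 (chr19:34583279-34583578, plus strand) had 2, and the GTPase genes Gbp2 (chr3:142620413-142620712, plus strand) and Igtp (chr11:58199306-58199605, plus strand) had 1 each. Tap1 (chr17:34187306-34187605, plus strand), the peptide transporter subunit, had none in this window.
Isg15: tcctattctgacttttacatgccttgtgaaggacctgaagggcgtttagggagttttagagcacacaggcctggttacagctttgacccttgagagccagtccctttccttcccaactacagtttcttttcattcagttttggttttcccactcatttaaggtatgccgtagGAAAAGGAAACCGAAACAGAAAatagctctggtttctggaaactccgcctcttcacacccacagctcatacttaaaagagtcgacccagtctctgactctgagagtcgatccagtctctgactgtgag
Ifit3: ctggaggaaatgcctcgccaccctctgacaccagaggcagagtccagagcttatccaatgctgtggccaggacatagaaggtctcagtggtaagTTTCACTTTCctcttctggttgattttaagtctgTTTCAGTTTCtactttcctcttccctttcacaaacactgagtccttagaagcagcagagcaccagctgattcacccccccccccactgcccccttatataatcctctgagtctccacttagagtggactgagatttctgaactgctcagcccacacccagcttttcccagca
Gbp2: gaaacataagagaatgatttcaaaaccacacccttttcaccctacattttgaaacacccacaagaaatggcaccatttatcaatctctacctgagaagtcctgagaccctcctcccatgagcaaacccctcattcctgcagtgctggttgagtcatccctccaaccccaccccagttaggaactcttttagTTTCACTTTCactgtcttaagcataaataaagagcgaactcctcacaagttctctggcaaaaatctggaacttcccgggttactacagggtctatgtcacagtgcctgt
Igtp: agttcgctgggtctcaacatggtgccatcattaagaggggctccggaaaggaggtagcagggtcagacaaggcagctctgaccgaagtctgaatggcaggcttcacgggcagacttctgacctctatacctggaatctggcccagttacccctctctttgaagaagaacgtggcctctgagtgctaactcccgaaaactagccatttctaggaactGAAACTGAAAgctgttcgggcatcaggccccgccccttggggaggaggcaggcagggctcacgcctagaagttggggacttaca
Tap1: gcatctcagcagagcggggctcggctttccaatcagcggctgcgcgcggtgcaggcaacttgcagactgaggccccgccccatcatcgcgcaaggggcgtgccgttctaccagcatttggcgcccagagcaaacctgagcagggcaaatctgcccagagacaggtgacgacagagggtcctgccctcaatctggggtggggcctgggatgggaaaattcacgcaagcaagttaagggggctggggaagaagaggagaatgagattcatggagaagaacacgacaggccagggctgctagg

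RefSeq promoters were matched for 34 of the 42 members. The ISRE core was found in 18 of these 34, or 52.9%, against 1079 of 27025 genes, or 3.99%. The GAS core TTCNNNGAA was found in 9 of 34 members, or 26.5%, against 2582 of 27025 genes, or 9.55%. A match is a description of the letters only. No test was made between members with and without the core. The first core lay at position -78 from the start in Isg15, -156 in Ifit3, -59 in Gbp2 and -34 in Igtp.

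Library totals ran from 27527043 to 40357342 counts, so that 3 counts, the smallest number treated as detection, corresponded to between 0.0753 and 0.11 CPM. The biological coefficient of variation over all genes was 7.99%. The 10 fibroblast markers examined were present in every group, and their summed level ran from 21199 CPM in an FGF2 library to 78383 CPM in an unstimulated naive library. Several markers of lymphoid and myeloid cells were at or near 0: Cd3e, Cd3d, Nkg7 and Ncr1 had no count in any library, C1qa, C1qb, Tyrobp and Adgre1 had at most 2 counts in a library, and Ptprc reached 0.258 CPM at most. Other markers on these lists were present: Lyz2 reached 11.9 CPM, Cd68 4.26 CPM, Csf1r 3.53 CPM and Ly6g 2.58 CPM. The 12 macrophage markers summed to 46.4 to 52.3 CPM in FGF2 libraries and to 13.4 to 15.1 CPM in unstimulated naive libraries, and Cd14 alone accounted for 43.8 CPM on average with FGF2 and 6.03 CPM without stimulation. The 5 macrophage markers tested did not move together with FGF2: Cd14 and Cd68 were higher, by 2.86 ± 0.12 and 1.63 ± 0.20 on the log2 scale, while Csf1r and Lyz2 fell by 2.59 ± 0.23 and 2.73 ± 0.28, and Fcer1g was called lower. Ly6g averaged 2.10 CPM in FGF2 cells and 0.0116 CPM in unstimulated cells, under the value of 3 counts. Of 10 interferon genes, 7 (4 alpha subtypes, Ifnb1, Ifnl2 and Ifnl3) had no count in any library and the remaining 3 (Ifne, Ifnk and Ifng) had at most 2 counts in a library, below the 3 counts treated as detection.

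At rest the members spanned more than 3 orders of magnitude. In RPKM (the CPM per kilobase of summed exon length), the highest levels in unstimulated naive cells were those of Ifitm3 (387), Ifitm2 (284) and B2m (250), followed by Ifi27 (63.1), H2-D1 (53.0) and H2-K1 (35.4). Ifitm2 and Ifitm3 encode membrane proteins that block viral fusion, and over the 3 unstimulated libraries Ifitm2 (237 to 330 RPKM) overlapped B2m (241 to 261 RPKM), while Ifitm3, Ifi27, H2-D1 and H2-K1 were each apart from their neighbours in this order. The signalling factors Irf9 (4.56) and Stat2 (3.83) and the antiviral genes Isg15 (2.78) and Ifit1 (1.40) came further down in RPKM. The antiviral genes Zbp1 (0.397) and Rsad2 (0.105) were near the lower end. At these levels several members rest on few reads, and a fold change of one below 1 CPM has a wide error.

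**Figure D1:**
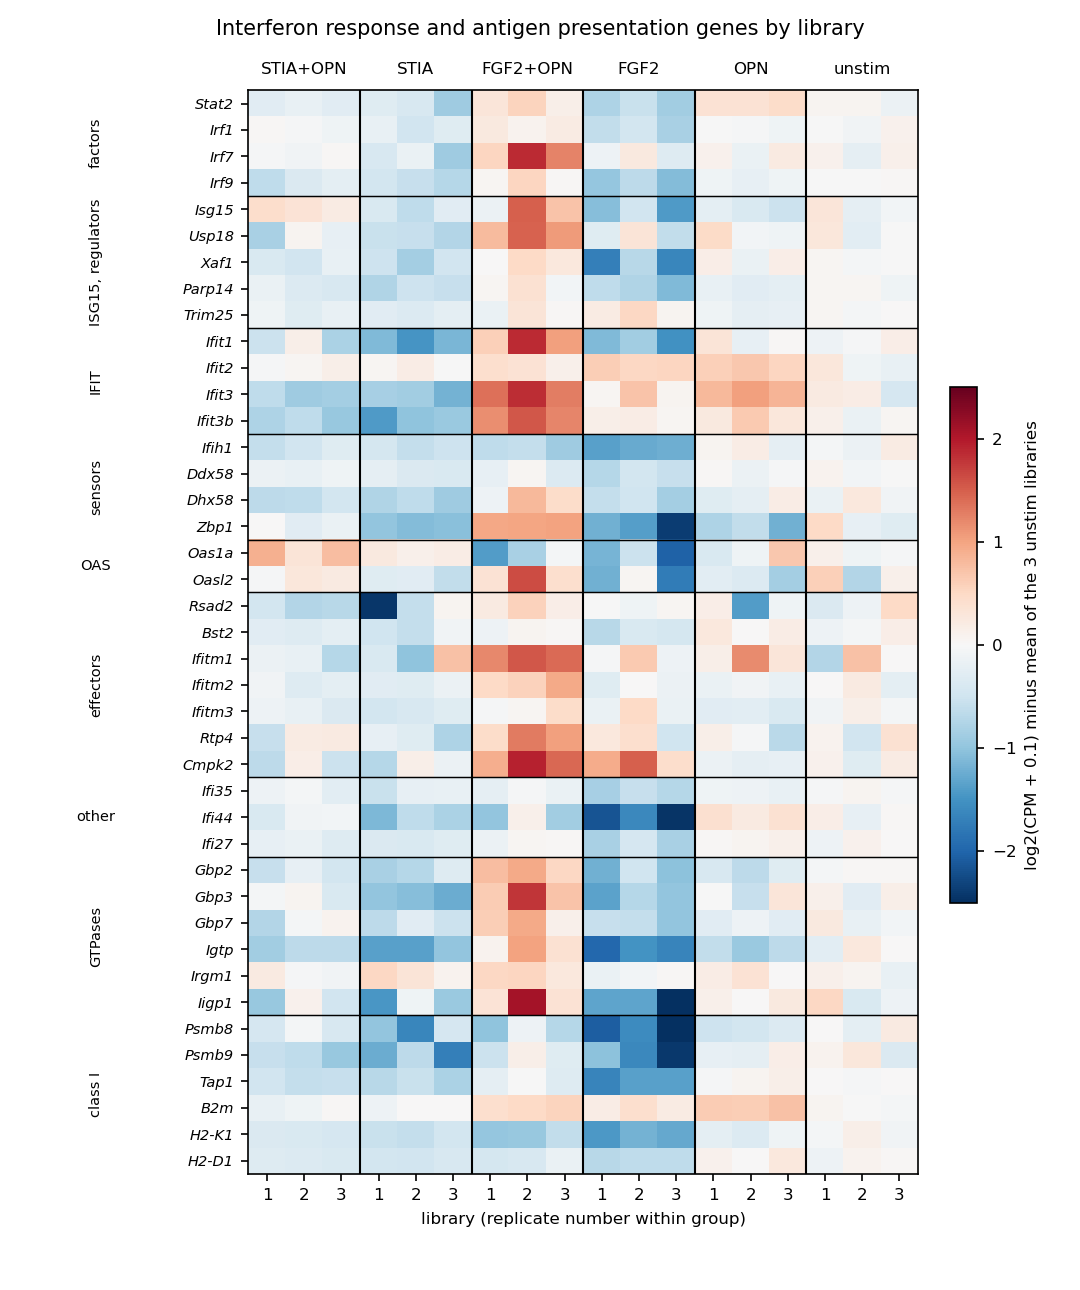
Heat map of the 41 tested members (rows, grouped by role) in the 18 libraries (columns, 3 for each group). Colour gives log2(CPM + 0.1) minus the mean of the 3 unstimulated naive libraries, red for higher and blue for lower. FGF2 and STIA columns are mostly blue, FGF2+OPN columns are red for the Ifit genes and GTPases, and the second FGF2+OPN library is the reddest of its group.

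Replicates of a group spread more in these genes than in the transcriptome at large. The median SD of a member over 3 replicates was 0.24 on the log2 scale in FGF2+OPN cells against 0.14 for all tested genes, 0.24 against 0.12 in FGF2 cells, and 0.18 against 0.11 in unstimulated naive cells. FGF2+OPN replicate 2 held the highest value of its group for 32 of 41 members (78.0%), against 32.6% of all tested genes. FGF2 replicate 2 did so for 30 of 41 members (73.2%), against 41.6% of all tested genes. Results that rest on either library are therefore also given without it where the difference matters.

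FGF2 lowered most of the module. In FGF2-treated naive cells 26 of 41 members were lower and 4 higher than in unstimulated naive cells (edgeR quasi-likelihood test, Benjamini-Hochberg adjusted p below 0.05 over all genes, the threshold for a call throughout), where 28.1% of all genes were called lower and 29.1% higher. The median log2 fold change of the members was -0.71, against 0.01 for all genes. In 30 of 41 members the FGF2 libraries did not overlap the unstimulated ones. The share over all genes was not computed, so this count is not read as a trait of the module. RNA was measured in bulk, so fewer cells expressing a gene and less RNA per cell cannot be told apart. Summed fibroblast markers were 21199 to 23131 CPM in FGF2 cells and 69074 to 78383 CPM in unstimulated cells. Col1a1 alone averaged 4067 CPM in FGF2 cells and 36971 CPM in unstimulated cells. The 10 fibroblast markers did not move together: 5 were lower with FGF2 and 3 higher, among these Pdpn by 2.19 ± 0.06 on the log2 scale. The macrophage markers moved as given above. The part of these markers in the member values was not tested.

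Among the factors that carry the interferon signal, Stat2, Irf9 and Irf1 fell with FGF2 and Irf7 was not called. Stat2, a subunit of ISGF3, had 13.3, 15.5 and 12.4 CPM in FGF2 cells, against 23.8, 23.8 and 20.5 CPM in unstimulated naive cells, a log2 fold change of -0.73 ± 0.13 (SE; edgeR adjusted p = 4.2e-05). Irf9, the DNA-binding subunit, had 12.5, 15.6 and 11.6 CPM with FGF2, against 24.3, 24.3 and 25 CPM without stimulation, a log2 fold change of -0.89 ± 0.13 (edgeR adjusted p = 3.4e-06). For both genes every FGF2 library lay below every unstimulated one. Irf9 shares 123 exon bases with Rnf31 on the same strand. Irf7, the factor that amplifies the type I response, had 2.23, 2.94 and 1.94 CPM in FGF2 cells, against 2.65, 2.09 and 2.67 CPM in unstimulated cells, and the groups overlapped (log2 fold change -0.07 ± 0.28, edgeR adjusted p = 0.86).

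Class I antigen presentation genes fell too, with the exception of the light chain. Of its 6 members 5 were lower and 1 higher with FGF2, and their median log2 fold change was -1.38. H2-K1, a classical heavy chain, had 38.4, 45.8 and 42.4 CPM in FGF2 cells, against 99.9, 115 and 97.6 CPM in unstimulated cells (log2 fold change -1.30 ± 0.09, edgeR adjusted p = 2.9e-11). Tap1 averaged 9.22 ± 1.06 CPM with FGF2 and 25.4 ± 0.418 CPM without stimulation (SD, n = 3 each; log2 fold change -1.46 ± 0.10), and H2-D1 fell by 0.66 ± 0.07. The groups did not overlap for any of these 3 genes. Psmb8, the LMP7 subunit of the immunoproteasome, had 0.3, 0.463 and 0.0606 CPM in FGF2 cells, against 1.58, 1.31 and 1.84 CPM in unstimulated cells. This was the largest fall among the members named (log2 fold change -2.53 ± 0.42, edgeR adjusted p = 2e-05), and it was -3.14 without FGF2 replicate 2. Psmb9 reached 0.4 CPM at most in FGF2 libraries and fell by 1.96 ± 0.43, and 212 of its exon bases are shared with the divergent gene Tap1, so reads there cannot be assigned without knowing how strand was counted. B2m, the light chain shared by all class I molecules, went the other way, with 245, 288 and 249 CPM in FGF2 cells, against 225, 213 and 208 CPM in unstimulated cells (log2 fold change 0.28 ± 0.07, edgeR adjusted p = 0.0016). H2-K1 and H2-D1 are near copies of each other and of other class I genes, and the sources used here do not state how reads that fit several genes were counted.

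Sensors, GTPases and interferon-induced proteins fell as well. All 4 nucleic acid sensors were lower with FGF2, from -0.58 ± 0.09 for Ddx58 (RIG-I) to -1.85 ± 0.33 for Zbp1 on the log2 scale, with Ifih1 (MDA5) at -1.30 ± 0.13 and Dhx58 (LGP2) at -0.69 ± 0.23. Of the 6 GTPases, which act on vacuoles of intracellular pathogens, 5 were lower, and Irgm1 was not called (-0.08 ± 0.12, edgeR adjusted p = 0.6). Iigp1 had 0.433, 0.43 and 0.0909 CPM in FGF2 cells, against 1.8, 0.921 and 1.11 CPM in unstimulated cells (log2 fold change -2.03 ± 0.61, edgeR adjusted p = 0.0088). Ifi44, a cytoplasmic interferon-induced protein, had 1.13, 1.69 and 0.909 CPM with FGF2, against 6.06, 4.68 and 5.52 CPM without stimulation (log2 fold change -2.13 ± 0.27). The FGF2 libraries of both genes lay wholly below the unstimulated ones, and Ifi35 and Ifi27 fell too, by 0.71 ± 0.11 and 0.67 ± 0.09.

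The Ifit family and the ISG15 system did not move as a unit with FGF2. Ifit2, which binds viral and cellular RNA, was higher, with 24.4, 22.8 and 23.2 CPM in FGF2 cells, against 19.3, 14.8 and 14.0 CPM in unstimulated cells (log2 fold change 0.55 ± 0.10, edgeR adjusted p = 8.6e-05). Ifit1, which recognises RNA lacking a methylated cap, was lower (-1.20 ± 0.32, edgeR adjusted p = 0.004). Ifit3 and its near copy Ifit3b were not called, at 0.28 ± 0.19 and 0.12 ± 0.18. Isg15 had 0.867, 1.36 and 0.666 CPM in FGF2 cells, against 2.4, 1.63 and 1.84 CPM in unstimulated cells (log2 fold change -1.03 ± 0.35, edgeR adjusted p = 0.014), a call lost without FGF2 replicate 3 or without unstimulated replicate 1. Usp18, the protease that removes ISG15, was not called (-0.19 ± 0.30), while Xaf1 and Parp14 fell by 1.33 ± 0.23 and 0.83 ± 0.14. Trim25, a ubiquitin ligase that activates RIG-I, was higher at 34.6, 42.9 and 31.2 CPM with FGF2, against 30.8, 28.8 and 30.1 CPM without (log2 fold change 0.28 ± 0.11, edgeR adjusted p = 0.034). The Trim25 call was lost without FGF2 replicate 2 and without any 1 of the 3 unstimulated libraries. Without FGF2 replicate 2, or without unstimulated replicate 2, 2 members rather than 4 were higher, since the call of Cmpk2, at or below 0.992 CPM in both groups, was lost too.

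**Figure D2:**
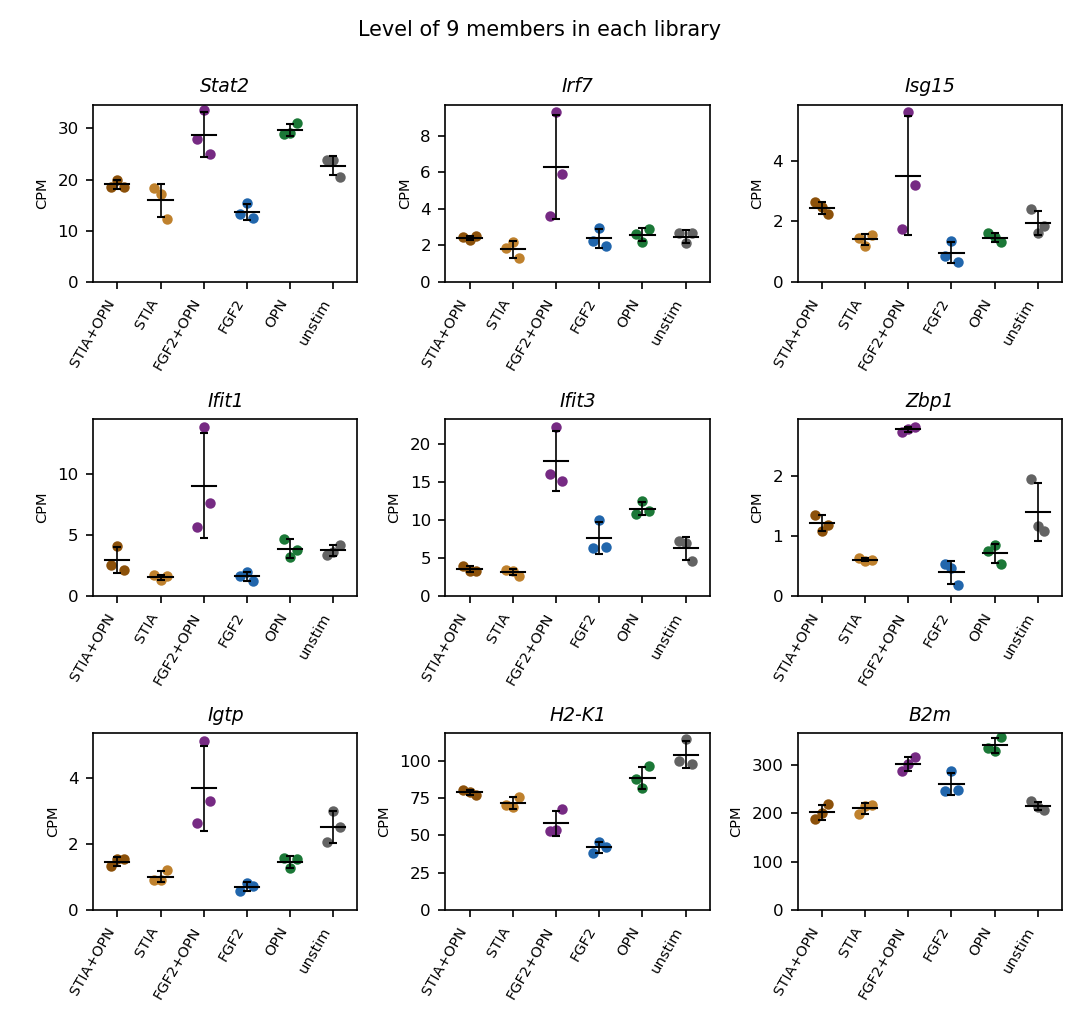
Level (CPM, linear axes from 0) of 9 members in each library. Points are the 3 libraries of a group, horizontal lines are means and bars 1 SD. FGF2+OPN libraries are the highest for Irf7, Ifit1, Ifit3 and Zbp1, the FGF2 group is the lowest for H2-K1, and B2m is highest with OPN.

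OPN alone moved 8 of 41 members past the threshold. In OPN-treated naive cells 4 members were higher, 4 lower and 33 not called against unstimulated naive cells, where 15.2% of all genes were called higher and 16.5% lower, and the members' median log2 fold change was -0.05. The largest rise was that of Ifit3, with 10.8, 12.5 and 11.1 CPM in OPN cells, against 7.2, 6.98 and 4.55 CPM in unstimulated cells (log2 fold change 0.88 ± 0.19, edgeR adjusted p = 0.0013). B2m had 335, 329 and 357 CPM with OPN, against 225, 213 and 208 CPM without stimulation (0.66 ± 0.07, edgeR adjusted p = 3e-07). Ifit2 was higher by 0.59 ± 0.10 and Stat2 by 0.39 ± 0.12, at 29.0, 29.0 and 31.1 CPM for Stat2 in OPN cells. All OPN libraries lay above all unstimulated ones for these 4 genes.

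The genes that fell with OPN were Zbp1, Igtp, Gbp2 and H2-K1. Zbp1, a sensor of Z-form nucleic acid, had 0.753, 0.85 and 0.535 CPM in OPN cells, against 1.96, 1.17 and 1.08 CPM in unstimulated cells (log2 fold change -0.96 ± 0.29, edgeR adjusted p = 0.015). Igtp, an immunity-related GTPase, had 1.58, 1.26 and 1.54 CPM with OPN, against 2.05, 3.01 and 2.5 CPM without stimulation (-0.78 ± 0.24, edgeR adjusted p = 0.015). It shares 162 exon bases with Irgm2 on the same strand. Gbp2 had 9.67, 8.03 and 10.3 CPM in OPN cells, against 12.3, 13.0 and 12.9 CPM in unstimulated cells (-0.45 ± 0.16, edgeR adjusted p = 0.036), and H2-K1 averaged 88.7 ± 7.38 CPM with OPN and 104 ± 9.2 CPM without stimulation (SD, n = 3 each; -0.23 ± 0.09, edgeR adjusted p = 0.047). In all 4 genes the OPN libraries lay below the unstimulated ones. The rises of Ifit3, Ifit2 and B2m were called whichever library was left out. Leaving out OPN replicate 2, unstimulated replicate 1 or unstimulated replicate 2 left 1 of the 4 lower calls, and leaving out OPN replicate 1 left 2. The Stat2 call was lost without OPN replicate 3 or unstimulated replicate 3. Irf7, Irf9 and Isg15 were not called, at 0.05 ± 0.27, -0.15 ± 0.12 and -0.42 ± 0.32.

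With FGF2 and OPN together the module stood mostly at or above its unstimulated level. Against unstimulated naive cells 19 members were higher, 3 lower and 19 not called in FGF2+OPN cells, where 23.7% of all genes were called higher and 26.1% lower. The members' median log2 fold change was 0.34, against -0.01 for all genes. Without FGF2+OPN replicate 2, 13 were higher and 6 lower with a median of 0.23, and Stat2, Isg15, Ifit2, Gbp7, Igtp and Rtp4 lost their calls. Without unstimulated replicate 3, 13 were higher and 3 lower. On library totals alone, which moved the median of all genes by 0.14 in this comparison, 24 were higher and 3 lower. FGF2, OPN and FGF2+OPN were all set against the same 3 unstimulated libraries, so the 3 comparisons are not independent.

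All 4 Ifit genes were higher with both factors. Ifit3 had 16, 22.3 and 15.1 CPM in FGF2+OPN cells, against 7.2, 6.98 and 4.55 CPM in unstimulated cells (log2 fold change 1.5 ± 0.19, edgeR adjusted p = 1.1e-06). Ifit3b had 5.73, 7.55 and 6.03 CPM in FGF2+OPN cells, against 2.75, 2.23 and 2.61 CPM in unstimulated cells (1.34 ± 0.17, edgeR adjusted p = 8.1e-07), and Ifit1 was higher by 1.27 ± 0.28. Ifit3 and Ifit3b are near copies, so reads may have been split between them. Irf7 had 3.62, 9.28 and 5.91 CPM with both factors, against 2.65, 2.09 and 2.67 CPM without stimulation (1.33 ± 0.26, edgeR adjusted p = 0.0002). Its lowest treated library still lay above its highest unstimulated one, with replicate 2 far above the others. Irf7 shares 45 exon bases with Phrf1 on the opposite strand, and Phrf1 averaged 80.4 CPM. Isg15 had 1.73, 5.62 and 3.22 CPM in FGF2+OPN cells, against 2.4, 1.63 and 1.84 CPM in unstimulated cells, and its groups overlapped (0.82 ± 0.30, edgeR adjusted p = 0.027). Stat2 had 27.9, 33.5 and 24.9 CPM with both factors, all above the unstimulated libraries (0.34 ± 0.12, edgeR adjusted p = 0.024), while Irf9, at 25.4, 35.5 and 25.2 CPM in FGF2+OPN cells, was not called (0.22 ± 0.12, edgeR adjusted p = 0.14). Usp18 was higher by 1.16 ± 0.27, and 5 of 6 GTPases were higher, among them Gbp3 by 1.15 ± 0.27, Gbp2 by 0.76 ± 0.15 and Irgm1 by 0.44 ± 0.12. Of the 7 effectors 4 were higher: Cmpk2, Ifitm1, Rtp4 and Ifitm2. Ifitm2 had 261, 274 and 358 CPM in FGF2+OPN cells, against 186, 216 and 155 CPM in unstimulated cells. Cmpk2 and Ifitm1 averaged only 0.98 and 0.619 CPM in FGF2+OPN cells, and 0.292 and 0.197 CPM in unstimulated cells. Rtp4 shares 296 exon bases with Gm45338 on the same strand. Over all libraries Gm45338 averaged 4.78 CPM and Rtp4 3.21 CPM.

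Class I heavy chains stayed below their unstimulated level under joint treatment. H2-K1 had 52.8, 53.8 and 67.7 CPM in FGF2+OPN cells, against 99.9, 115 and 97.6 CPM in unstimulated cells (log2 fold change -0.84 ± 0.09, edgeR adjusted p = 7.4e-08). H2-D1 had 100, 103 and 122 CPM in FGF2+OPN cells, against 125, 146 and 140 CPM in unstimulated cells (-0.34 ± 0.07, edgeR adjusted p = 0.00057). Ifih1, the third member that fell, had 6.23, 6.38 and 5.21 CPM in FGF2+OPN cells, against 9.37, 8.72 and 11.2 CPM in unstimulated cells (-0.71 ± 0.13, edgeR adjusted p = 7.8e-05). In none of the 3 did the groups overlap. Tap1, Psmb8 and Psmb9 were not called, at -0.18 ± 0.09, -0.64 ± 0.35 and -0.26 ± 0.36, while B2m was higher at 287, 302 and 316 CPM with both factors (0.49 ± 0.07). Heavy chains and light chain thus differed in direction in each of the 3 treatments, except that H2-D1 was not called with OPN alone (0.13 ± 0.07, edgeR adjusted p = 0.19).

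**Figure D3:**
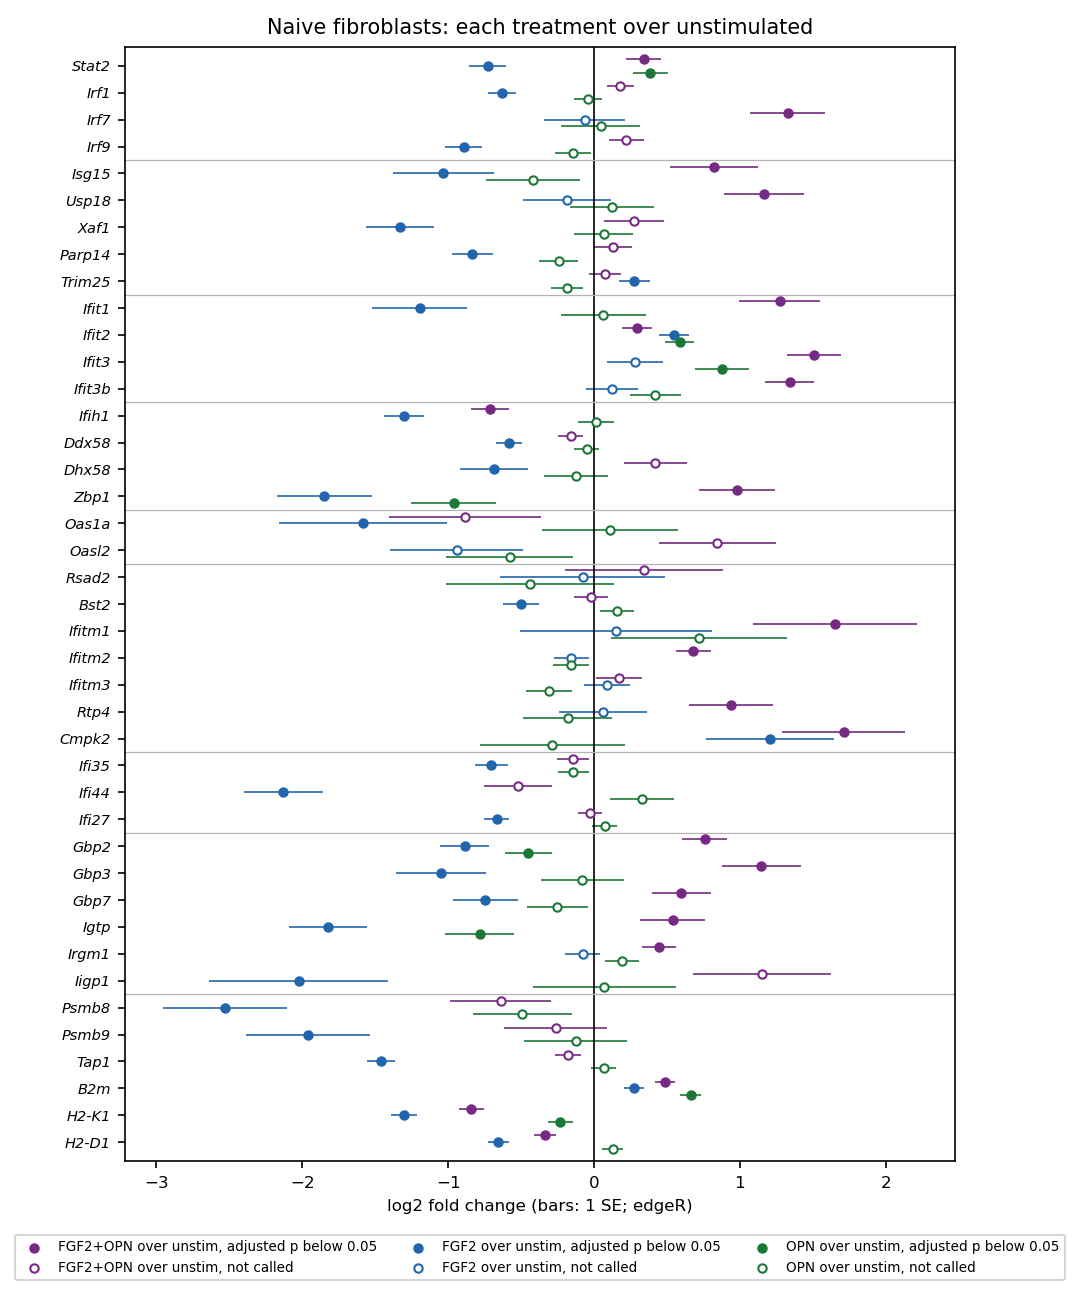
Log2 fold change of the 41 tested members in naive cells for FGF2+OPN, FGF2 and OPN, each over unstimulated. Bars are 1 SE, filled points passed an adjusted p of 0.05, and grey lines part the roles. FGF2 points lie mostly left of 0 and FGF2+OPN points mostly at or right of 0, while class I heavy chains stay left of 0 in both.

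Members whose promoter held the ISRE core and members without it had like medians with FGF2, at -0.65 over 18 members and -0.80 over 16. With both factors against unstimulated cells, 12 of 18 members with the core were higher and 1 lower, and 4 of 16 without it were higher and 2 lower, with medians of 0.51 and 0.13. The order was the other way for FGF2+OPN over FGF2, with medians of 0.95 with the core and 1.20 without it, and for the interaction of FGF2 and OPN, with medians of 0.74 and 1.04 and 11 members positive in each subset. The difference between these subsets was not tested. Isg15, Ifit3, Gbp2 and Igtp, whose cores are shown above, were all among the 12, and Tap1, without one, was among the uncalled.

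OPN added to FGF2 gave the most calls among members in any of the 10 comparisons made. In FGF2+OPN cells 35 of 41 members were higher and 1 lower than in FGF2 cells, where 27.3% of all genes were called higher and 31.2% lower, and the members' median log2 fold change was 1.11. Every member of the transcription factor, sensor, GTPase and class I groups that was tested was higher. Without FGF2+OPN replicate 2, 33 members were higher and 2 lower. Both sets of libraries also enter the comparisons with unstimulated cells. Markers of fibroblasts and of other cell types moved as well. Of 10 fibroblast markers 8 were higher and 2 lower with both factors than with FGF2 (median 0.85). Of 6 pericyte markers 4 were higher and 1 lower (median 1.09). The pericyte marker Abcc9 averaged 8.06 CPM in FGF2+OPN cells and 0.358 CPM in FGF2 cells. Of 5 endothelial markers tested, 1 was higher and 2 lower with both factors than with FGF2. Kdr averaged 0.686 CPM in FGF2+OPN cells and 9.08 CPM in FGF2 cells. Tek went the other way, at 4.14 CPM in FGF2+OPN cells and 1.11 CPM in FGF2 cells. Summed over each list, pericyte markers were 227 to 241 CPM in FGF2+OPN cells and 259 to 364 CPM in FGF2 cells, and endothelial markers 7.15 to 7.58 CPM in FGF2+OPN cells and 14.7 to 15.3 CPM in FGF2 cells. Their part in the member values was not tested.

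Iigp1 had 1.58, 5.49 and 1.61 CPM in FGF2+OPN cells, against 0.433, 0.43 and 0.0909 CPM in FGF2 cells (log2 fold change 3.18 ± 0.57, edgeR adjusted p = 0.00011), and 2.34 without FGF2+OPN replicate 2. Zbp1 had 2.74, 2.79 and 2.81 CPM in FGF2+OPN cells, against 0.533, 0.463 and 0.182 CPM in FGF2 cells (2.83 ± 0.31, edgeR adjusted p = 5.4e-08). Its 3 FGF2+OPN libraries were close to equal, unlike those of most members. Ifit1 had 5.68, 13.9 and 7.64 CPM with both factors, against 1.67, 1.98 and 1.24 CPM with FGF2 alone (2.47 ± 0.31, edgeR adjusted p = 1.4e-06). Igtp was higher by 2.36 ± 0.26 and Gbp3 by 2.20 ± 0.29. Stat2, Irf9 and Irf1 were higher by 1.07 ± 0.12, 1.12 ± 0.13 and 0.81 ± 0.10, Irf7 by 1.39 ± 0.26 and Isg15 by 1.86 ± 0.33.

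The class I genes were higher with both factors than with FGF2 alone, by 1.28 ± 0.10 for Tap1, 0.46 ± 0.09 for H2-K1, 0.32 ± 0.07 for H2-D1 and 0.21 ± 0.07 for B2m on the log2 scale. The B2m call was lost without FGF2 replicate 1 or FGF2 replicate 3. Ifit2 was the 1 member lower, with 21.3, 20.4 and 17.2 CPM in FGF2+OPN cells, against 24.4, 22.8 and 23.2 CPM in FGF2 cells (-0.25 ± 0.10, edgeR adjusted p = 0.037). Its call was lost without FGF2 replicate 1, FGF2 replicate 3 or FGF2+OPN replicate 3, on library totals alone, and in a fit to these libraries only. Members not called were Trim25, Ifitm3, Rsad2, Cmpk2 and Oas1a, and the last 3 lay at or below 1.36 CPM in both groups.

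FGF2 added to OPN gave a divided picture. Against OPN cells 21 members were higher and 7 lower in FGF2+OPN cells, where 27.1% of all genes were called higher and 29.5% lower, with a member median of 0.37. Zbp1 had 2.74, 2.79 and 2.81 CPM in FGF2+OPN cells, against 0.753, 0.85 and 0.535 CPM in OPN cells (log2 fold change 1.94 ± 0.28, edgeR adjusted p = 3.3e-06). Oasl2, an OAS-like protein, had 2.69, 6.62 and 2.78 CPM in FGF2+OPN cells, against 1.71, 1.6 and 1.1 CPM in OPN cells (1.42 ± 0.41, edgeR adjusted p = 0.007), a call lost without FGF2+OPN replicate 2. Igtp had 2.64, 5.12 and 3.29 CPM in FGF2+OPN cells, against 1.58, 1.26 and 1.54 CPM in OPN cells (1.32 ± 0.23, edgeR adjusted p = 4.2e-05). Irf7 was higher by 1.28 ± 0.25 and Isg15 by 1.24 ± 0.30, and the groups did not overlap for any of these 5 genes.

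The 7 members lower with both factors than with OPN were Ifi44, Ifih1, H2-K1, H2-D1, Ifit2, Tap1 and B2m. Ifi44 had 2.66, 5.92 and 2.91 CPM in FGF2+OPN cells, against 7.11, 6.31 and 7.06 CPM in OPN cells (log2 fold change -0.85 ± 0.23, edgeR adjusted p = 0.0032). Ifih1 had 6.23, 6.38 and 5.21 CPM in FGF2+OPN cells, against 10.1, 11 and 8.27 CPM in OPN cells (-0.73 ± 0.13, edgeR adjusted p = 4.6e-05), and H2-K1 had 52.8, 53.8 and 67.7 CPM in FGF2+OPN cells, against 87.6, 81.9 and 96.5 CPM in OPN cells (-0.61 ± 0.09, edgeR adjusted p = 4.6e-06). In these 3 genes all FGF2+OPN libraries lay below all OPN libraries. B2m had a log2 fold change of -0.17 ± 0.07, and its call was lost without OPN replicate 1, OPN replicate 3, FGF2+OPN replicate 1 or FGF2+OPN replicate 2. Without FGF2+OPN replicate 2, 16 members were higher and 7 lower. On library totals alone, which moved the median of all genes by 0.13 here, 23 were higher and 4 lower.

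A test of the interaction asked whether the effect of FGF2 differed between cells with OPN and cells without it. It was positive for 29 members, negative for 2 and not called for 10, where 24.1% of all genes had a positive and 27.2% a negative interaction, and the members' median was 0.99 on the log2 scale against -0.03 for all genes. The largest values were those of Zbp1 (3.79 ± 0.43, edgeR adjusted p = 1.5e-07), Igtp (3.15 ± 0.35, edgeR adjusted p = 1.4e-07) and Iigp1 (3.11 ± 0.77, edgeR adjusted p = 0.0025). Iigp1 stood at 2.27 without FGF2+OPN replicate 2, and 28 members were positive without that library. The effect of FGF2 on Zbp1 was 1.94 ± 0.28 with OPN and -1.85 ± 0.33 without it. For Gbp2 it was 1.21 ± 0.16 with OPN and -0.89 ± 0.17 without it, and for Isg15 it was 1.24 ± 0.30 with OPN and -1.03 ± 0.35 without it.

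Irf1, Irf7, Irf9 and Stat2 all had positive interactions, between 0.68 ± 0.17 for Stat2 and 1.34 ± 0.37 for Irf7. The class I genes Psmb8, Psmb9, Tap1 and H2-K1 did too, the last at 0.69 ± 0.12, while H2-D1 was not called (0.19 ± 0.10). Ifit2 and B2m had negative interactions, of -0.84 ± 0.14 and -0.45 ± 0.10 (edgeR adjusted p = 4.2e-05 and 0.00053). Both were higher than unstimulated with each factor alone and with the 2 combined. B2m had 287, 302 and 316 CPM with both factors, 245, 288 and 249 CPM with FGF2, 335, 329 and 357 CPM with OPN, and 225, 213 and 208 CPM unstimulated. Ifit3 was not called (0.35 ± 0.26, edgeR adjusted p = 0.28).

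**Figure D4:**
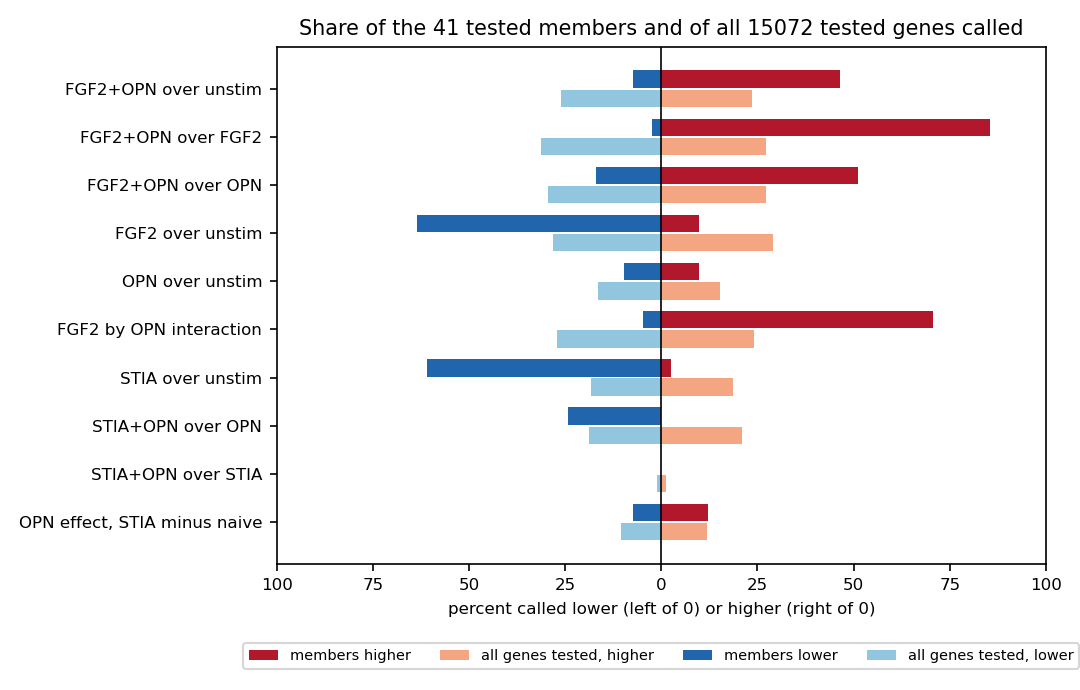
Percent of the 41 tested members (dark bars) and of all 15072 tested genes (light bars) called higher (right of 0) or lower (left of 0) in each of 10 comparisons by edgeR at an adjusted p below 0.05. Members higher reach 85.4% for FGF2+OPN over FGF2, and members lower reach 63.4% for FGF2 and 61.0% for STIA over unstimulated.

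Most of the module was lower in arthritic than in naive fibroblasts. In unstimulated STIA cells 25 of 41 members were lower and 1 higher than in unstimulated naive cells, where 18.2% of all genes were called lower and 18.6% higher. The members' median log2 fold change was -0.52, against -0.01 for all genes. In 28 members the groups did not overlap, a count for which the share over all genes was not computed either. The 3 naive libraries are those that the treatments were set against above. Between 20 and 23 members were lower when any 1 of the 6 libraries was left out. The macrophage markers summed to 14 to 14.9 CPM in STIA cells and to 13.4 to 15.1 CPM in naive cells, with no T and NK cell marker detected in STIA cells. Of the 10 fibroblast markers 6 were lower and 2 higher in STIA cells, with a median log2 fold change of -0.49. Pdgfra averaged 144 CPM in STIA cells and 317 CPM in naive cells, Lum 40.1 CPM in STIA cells and 132 CPM in naive cells, and Col3a1 4518 CPM in STIA cells and 8292 CPM in naive cells. The part of these marker differences in the member values was not tested.

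The factors and sensors were lower in STIA cells. Stat2 had 18.4, 17.2 and 12.2 CPM in STIA cells, against 23.8, 23.8 and 20.5 CPM in naive cells (log2 fold change -0.51 ± 0.13, edgeR adjusted p = 0.0033). Irf9 had 18, 16.3 and 15 CPM in STIA cells, against 24.3, 24.3 and 25 CPM in naive cells (-0.58 ± 0.13, edgeR adjusted p = 0.0011). Irf7 was not called, with 1.85, 2.18 and 1.28 CPM in STIA cells, against 2.65, 2.09 and 2.67 CPM in naive cells, and neither was Isg15, with 1.46, 1.2 and 1.56 CPM in STIA cells, against 2.4, 1.63 and 1.84 CPM in naive cells (-0.48 ± 0.33, edgeR adjusted p = 0.28). All 4 sensors were lower, among them Zbp1, with 0.633, 0.582 and 0.604 CPM in STIA cells, against 1.96, 1.17 and 1.08 CPM in naive cells (-1.21 ± 0.31, edgeR adjusted p = 0.0036). Ifih1 and Ddx58 fell by 0.52 ± 0.13 and 0.32 ± 0.09.

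Ifit genes, GTPases and class I genes fell too, with exceptions. Ifit1 had 1.68, 1.27 and 1.63 CPM in STIA cells, against 3.38, 3.61 and 4.2 CPM in naive cells (log2 fold change -1.28 ± 0.33, edgeR adjusted p = 0.0051). Ifit3 had 3.39, 3.31 and 2.63 CPM in STIA cells, against 7.2, 6.98 and 4.55 CPM in naive cells (-1 ± 0.21, edgeR adjusted p = 0.00095), whereas Ifit2 was not called (0.06 ± 0.10). Igtp had the largest fall among members that averaged 1 CPM or more in either group, with 0.909, 0.91 and 1.21 CPM in STIA cells, against 2.05, 3.01 and 2.5 CPM in naive cells (-1.32 ± 0.25, edgeR adjusted p = 0.00032). H2-K1 had 70.4, 68.8 and 75.9 CPM in STIA cells, against 99.9, 115 and 97.6 CPM in naive cells (-0.54 ± 0.09, edgeR adjusted p = 6.5e-05). Tap1 fell by 0.68 ± 0.09 and H2-D1 by 0.45 ± 0.07, and in each of these class I genes the groups were apart. B2m was not called, with 198, 216 and 216 CPM in STIA cells, against 225, 213 and 208 CPM in naive cells. Irgm1, which controls other immunity-related GTPases, was the 1 member higher, with 27.2, 23.7 and 20.4 CPM in STIA cells, against 20.8, 19.9 and 16.7 CPM in naive cells (0.32 ± 0.12, edgeR adjusted p = 0.039). Its groups overlapped, and the call was lost without unstimulated naive replicate 2 or 3 or STIA replicate 1 or 2.

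OPN did not move any member past the threshold in arthritic cells. Against unstimulated STIA cells 0 of 41 members were called in STIA+OPN cells by edgeR, 8 had an unadjusted p below 0.05 and DESeq2 called 2 (Ifit1 and Gbp3), where 1.15% of all genes were called higher and 1.02% lower. The members' median log2 fold change was 0.21, against 0.00 for all genes, and 36 of 41 were above 0. Shares of all genes above 0, or at that unadjusted p, were not computed. Neither count is therefore read as a trait of the module. Ifit1 had 2.53, 4.13 and 2.11 CPM in STIA+OPN cells, against 1.68, 1.27 and 1.63 CPM in STIA cells (0.94 ± 0.33, edgeR adjusted p = 0.17), and Gbp3 had 2.82, 3.07 and 2.21 CPM in STIA+OPN cells, against 1.43, 1.35 and 1.17 CPM in STIA cells (1.03 ± 0.32, edgeR adjusted p = 0.098). Both were named after their values were seen. The groups did not overlap for either. Isg15 had 2.64, 2.49 and 2.25 CPM with OPN, against 1.46, 1.2 and 1.56 CPM without it (0.80 ± 0.32, edgeR adjusted p = 0.24). Stat2, Irf9, Irf7, Ifit3, H2-K1 and B2m lay between -0.05 ± 0.07 (B2m) and 0.44 ± 0.29 (Irf7).

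With OPN in both, arthritic cells had lower levels of Ifit3, Ifit3b, B2m and 7 other members than naive cells. Of 41 members 10 were lower and 0 higher in STIA+OPN than in naive OPN cells. Of all genes 18.9% were called lower and 21.1% higher. At an unadjusted p below 0.05 there were 15 members, and the share of all genes at that p was not computed. DESeq2 called 10 members lower and 1 higher (Zbp1). Ifit3 had 3.92, 3.27 and 3.34 CPM in STIA+OPN cells, against 10.8, 12.5 and 11.1 CPM in naive OPN cells (log2 fold change -1.71 ± 0.20, edgeR adjusted p = 1.3e-06). Ifit3b had 1.43, 1.59 and 1.26 CPM in STIA+OPN cells, against 3.01, 4.04 and 3.08 CPM in OPN cells (-1.24 ± 0.19, edgeR adjusted p = 1.7e-05). B2m had 188, 200 and 219 CPM in STIA+OPN cells, against 335, 329 and 357 CPM in OPN cells (-0.75 ± 0.07, edgeR adjusted p = 2.7e-08). The groups were far apart in all 3. Stat2, Tap1, Ifit2, H2-D1, Ifih1, Bst2 and Ifi27 were also lower, between -0.64 ± 0.12 for Stat2 and -0.30 ± 0.09 for Ifi27. H2-K1 was not called (-0.17 ± 0.09, edgeR adjusted p = 0.14).

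**Figure D5:**
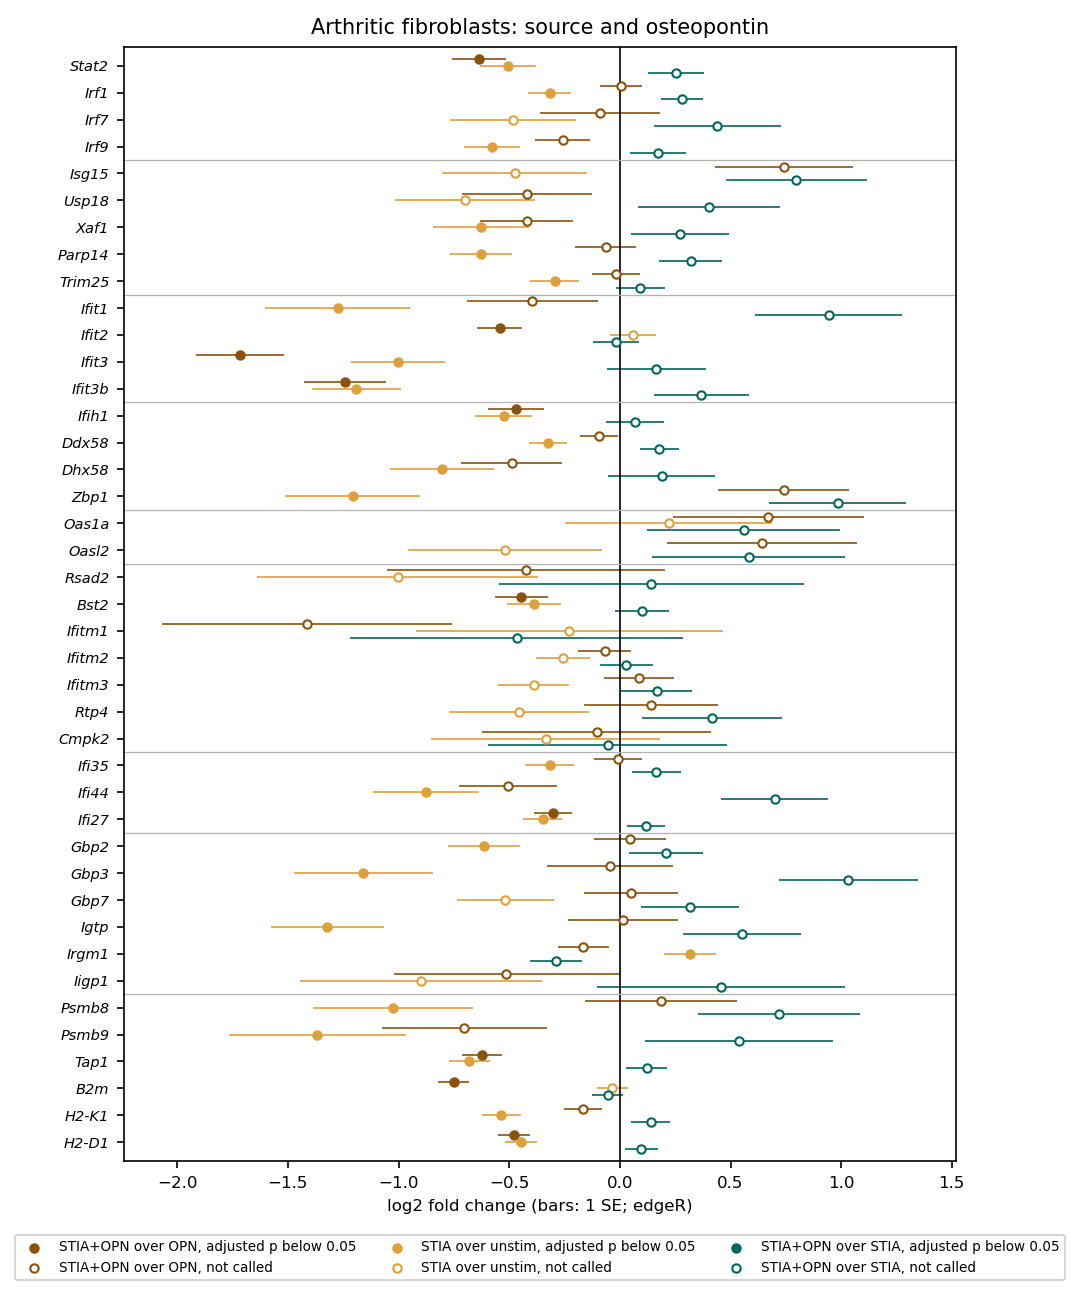
Log2 fold change of the 41 tested members for STIA+OPN over naive OPN, STIA over unstimulated naive, and STIA+OPN over STIA cells. Bars are 1 SE, and filled points passed an adjusted p of 0.05. STIA points lie mostly left of 0, where 25 are filled, whereas no STIA+OPN over STIA point is filled.

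The response to OPN differed by the source of the cells for 8 members. The OPN effect in STIA minus that in naive cells was positive for 5 members (12.2%) and negative for 3 (7.32%). Of all genes 11.8% had a positive and 10.5% a negative difference, so the count is close to that over all genes. Zbp1 differed most, with an OPN effect of 0.98 ± 0.31 in STIA cells and -0.96 ± 0.29 in naive cells, a difference of 1.95 ± 0.43 (edgeR adjusted p = 0.002). For Igtp the effect was 0.55 ± 0.27 in STIA cells and -0.78 ± 0.24 in naive cells, a difference of 1.34 ± 0.36 (edgeR adjusted p = 0.0091). B2m and Ifit2, both higher with OPN in naive cells, differed the other way, by -0.72 ± 0.10 and -0.60 ± 0.15. Ifit3 and Stat2, also higher with OPN in naive cells, had no called difference by source (edgeR adjusted p = 0.088 and 0.64). The calls of Zbp1, Igtp, B2m and Ifit2 were kept whichever library was left out. Gbp2, Irgm1, Parp14 and H2-K1, at 0.66 ± 0.23, -0.48 ± 0.17, 0.56 ± 0.20 and 0.37 ± 0.12, each lost theirs without OPN replicate 1 or 2, unstimulated naive replicate 2, STIA+OPN replicate 2, or STIA replicate 1 or 2.

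Genes around the module were read from lists that, like the members, were chosen with earlier results of these data known. Each list count below is to be set against the share of all genes called in the same comparison. With FGF2 over unstimulated cells 29.1% of all genes were called higher and 28.1% lower. With both factors over unstimulated cells these shares were 23.7% and 26.1%. The 9 interferon receptor and kinase genes were all detected. Of these, 4 were higher and 4 lower with FGF2, among them Ifngr2, the signalling chain of the interferon gamma receptor, which averaged 148 CPM in FGF2 cells and 46.4 CPM in unstimulated cells (log2 fold change 1.68 ± 0.08). The kinase gene Tyk2 was higher by 1.30 ± 0.07, and Ifnar2, a chain of the type I receptor, was lower at -0.70 ± 0.07. With both factors 3 were higher and 0 lower than unstimulated, Tyk2 by 0.93 ± 0.07, Ifngr2 by 0.55 ± 0.08 and Jak2 by 0.22 ± 0.07.

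Other interferon-stimulated genes, 39 tested of 47 listed, were mostly lower with FGF2. With FGF2 7 were higher and 23 lower than unstimulated, with a median of -0.69. With both factors 17 were higher and 3 lower than unstimulated and 26 higher and 3 lower than with FGF2, and the interaction was positive for 24 and negative for 2. In STIA cells 3 were higher and 17 lower than in naive cells. Of all genes 18.6% were called higher and 18.2% lower in STIA over naive cells. For FGF2+OPN over FGF2 the shares of all genes were 27.3% higher and 31.2% lower. For the interaction they were 24.1% positive and 27.2% negative. The 3 largest differences with FGF2 were rises. Ido1, which degrades tryptophan, averaged 0.595 CPM in FGF2 cells, against 0.0457 CPM in unstimulated cells, under the value of 3 counts in any library. Ifi207, a nuclear DNA-binding protein of the p200 family, was higher by 3.12 ± 0.19 on the log2 scale at 17.5 CPM in FGF2 cells, against 2.01 CPM in unstimulated cells, and Oasl1 was higher by 2.35 ± 0.32 at 2.95 CPM in FGF2 cells, against 0.569 CPM in unstimulated cells. The death ligand gene Tnfsf10 (TRAIL) was called higher with both factors than with FGF2 and averaged 2.39 CPM in FGF2+OPN cells, against 0.0662 CPM in FGF2 cells, under the value of 3 counts in any library.

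Of 17 other class I presentation genes 13 were lower and 0 higher with FGF2, and 13 were higher and 1 lower with both factors than with FGF2. Tap2, the partner of Tap1, averaged 19.5 CPM in FGF2+OPN cells and 9.78 CPM in FGF2 cells (log2 fold change 0.996 ± 0.12), and Tapbp, which holds class I molecules at the transporter, averaged 116 CPM in FGF2+OPN cells and 60.8 CPM in FGF2 cells (0.93 ± 0.08). Class II genes were low throughout, their 8 genes together reaching 17.7 CPM at most. Of 5 tested class II genes 3 were called lower with FGF2, among them Cd74 (the invariant chain), which averaged 0.0424 CPM in FGF2 cells, under the value of 3 counts, against 1.44 CPM in unstimulated cells.

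Inducers and inhibitors of the pathway were also read. Of 14 sensing and induction genes 7 were higher and 3 lower with FGF2, with Tlr4 higher by 1.22 ± 0.09 and Irf5 by 1.10 ± 0.14. Of all genes 29.1% were called higher and 28.1% lower with FGF2, and 16.5% were called lower with OPN. Of 10 genes listed as negative regulators 1 was higher and 7 lower with FGF2, and 4 were lower with OPN. The 7 include Isg20, an antiviral exonuclease rather than an inhibitor of the pathway (log2 fold change -1.52 ± 0.12). The 1 higher gene, Ptpn6, averaged 0.502 CPM in FGF2 cells and 0.215 CPM in unstimulated cells. Socs3, an inhibitor of JAK signalling, averaged 151 CPM in FGF2+OPN cells, 61.6 CPM in FGF2 cells, 33.6 CPM in OPN cells and 116 CPM in unstimulated cells. Its log2 fold change was -1.79 ± 0.11 for OPN and -0.92 ± 0.11 for FGF2, each over unstimulated, and its interaction was 3.09 ± 0.16 (edgeR adjusted p = 8.8e-12). Socs1 was higher with both factors, by 0.92 ± 0.14 over unstimulated cells. Whether these levels have a part in the member values was not tested.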

How the data were processed

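RNA of 18 libraries was measured by sequencing of total RNA in paired reads. The authors deposited raw counts per gene for all 18 libraries in 1 table. Per the submitters' processing notes, STAR and featureCounts were used on GRCm38 (mm10), with no version given, and how strand and reads matching several genes were counted is not stated there. The table's gene length column was used for RPKM. Identifiers without a symbol (127, 0.0294% of counts) could not be matched to members or lists, and were not removed before the fit over all genes. No sample column was left unused, and no replicate libraries agreed within sampling noise (chi-square per degree of freedom 4.41 to 40.9 over 18 pairs).

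Counts were fitted with edgeR 4.0.16 in R 4.3.3 (limma 3.58.1): filterByExpr, TMM, a mean for each of 6 groups, robust quasi-likelihood F tests, two-sided, with Benjamini-Hochberg adjustment over all 15072 genes and a threshold of 0.05. Each ± beside a log2 value is the standard error. The fit was tested on simulated data. Values in every library were given for up to 3 members with the largest rise and 3 with the largest fall among those called with a mean of 1 CPM or more in either group, and for Irf7, Stat2, Irf9, Isg15, Ifit3, H2-K1 and B2m. Members and lists were chosen with earlier results of these data known. Genes of other lists were named as examples and were not always those with the largest called difference. Alternatives were RLE size factors, library totals alone, DESeq2 1.42.0, no filter on low counts, a replicate block, a fit to the compared libraries only, and leaving out each library. Promoters came from RefSeq (GRCm38.p6). The 3-count floor covers counting error only.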

Additional observations from a re-analysis of the deposited data

Results flagged for a closer look

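For 8 members the effect of OPN in STIA cells differed from its effect in naive cells by an edgeR test of that difference, adjusted over all genes. These were 12.2% of the members with a positive and 7.32% with a negative difference, against 11.8% and 10.5% of all genes, so the count is close to that over all genes. On the log2 scale the difference was 1.95 for Zbp1, whose effect of OPN was 0.98 in STIA cells and -0.96 in naive cells. It was 1.34 for Igtp (0.55 in STIA cells and -0.78 in naive cells), 0.66 for Gbp2 (0.21 in STIA cells and -0.45 in naive cells), 0.56 for Parp14 (0.32 in STIA cells and -0.24 in naive cells) and 0.37 for H2-K1 (0.14 in STIA cells and -0.23 in naive cells). It was -0.72 for B2m (-0.05 in STIA cells and 0.66 in naive cells), -0.60 for Ifit2 (-0.02 in STIA cells and 0.59 in naive cells) and -0.48 for Irgm1 (-0.29 in STIA cells and 0.19 in naive cells). In STIA cells alone none of the 8 effects passed the threshold by edgeR. Of the 41 members there, 8 had an unadjusted p below 0.05, for which the share over all genes was not computed. DESeq2 called Ifit1 and Gbp3 in that comparison. Summed macrophage markers were 13.4 to 14.2 CPM in STIA+OPN cells, 14 to 14.9 CPM in STIA cells, 17.1 to 20.8 CPM in OPN cells and 13.4 to 15.1 CPM in unstimulated naive cells, and their part in these differences was not tested.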

How the results depend on the processing

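Over 88 named values and 1111 alternatives, 1040 stayed on the same side of the threshold, 68 were no longer past it and 3 were newly past it. No value past the threshold changed sign. Values that were not called crossed 0 in 7 alternatives: Irf7 with FGF2 (reported value -0.07; 0.01 on library totals alone and 0.06 without FGF2 replicate 3), Irf7 with OPN (0.05; -0.04 without OPN replicate 3 and -0.06 without unstimulated replicate 2), B2m in STIA over naive cells (-0.03; 0.0041 without STIA replicate 1) and Stat2 in FGF2+OPN over OPN cells (-0.05; 0.09 on library totals alone and 0.05 without FGF2+OPN replicate 3). Among STIA+OPN and STIA cells, where edgeR called 0 members (8 at an unadjusted p below 0.05), 5 were called without the filter on low counts, 5 in a fit to these libraries only (Isg15, Ifit1, Ifi44, Gbp3 and Zbp1 in both) and 2 by DESeq2 (Ifit1 and Gbp3), and the cause was not tested. For the OPN effect in STIA minus naive cells, 15 members rather than 8 were called without the filter. Shares of all genes called in the alternative settings were not computed, so these member counts are not read as an excess over all genes. When each library was left out in turn, the called members numbered 5 to 6 for OPN (8 with all libraries), 4 to 8 for the OPN effect in STIA minus naive cells (8), 16 to 24 for FGF2+OPN over unstimulated cells (22), 27 to 29 for FGF2 (30), 20 to 24 for STIA over naive cells (26), 33 to 37 for FGF2+OPN over FGF2 (36), 23 to 26 for FGF2+OPN over OPN (28), 10 to 11 for STIA+OPN over OPN (10), 30 to 33 for the interaction (31) and 0 for STIA+OPN over STIA. These fits have fewer libraries. With the replicate number as a block, 4 members were higher and 27 lower with FGF2, and 19 higher and 4 lower with FGF2+OPN, each over unstimulated. Same-numbered libraries deviated together no more than by a correlation of -0.104 to 0.199 over 45 pairs, 2 of them above 0.1, so the numbers were not taken to pair the samples. Members below 1 CPM, such as Rsad2, Cmpk2, Oas1a and Psmb9, rest on few counts, and differences in them may not be detectable at this depth.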
